A study of Mus musculus with 9 samples.

Results

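The Irx3 locus on mouse chromosome 8 was followed through 4 genes of the 54532 in the deposited table: Irx3, its antisense transcript Irx3os, Irx5 and Fto. They were chosen by gene name, and Irx3os was included because its levels in these libraries had been seen to differ between the groups, so its values are given as a description, with no test. The libraries are polyA RNA from injured tibialis anterior, a muscle of the mouse lower leg, in 3 groups of 3. The young group was wild type at 4 to 6 months of age, and the old group was wild type at 24 months. The third group was old and lacked P311 (P311-/-), with no age in months stated for it. The labels used here do not state the kind of injury, the time after it, the sex of the mice, how P311 was deleted, or whether the 3 libraries of a group came from separate animals. P-values therefore measure the spread between these libraries, which may in part be technical.

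The 9 libraries held 14222204 to 31910890 reads on genes, and the P311-/- libraries were on average the deepest. Levels are given as FPKM, which is fragments counted on a gene per kilobase of its exons, divided by a library size. The library size implied by the deposited FPKM was not the number of reads on genes. It was above that number in the young libraries, old wild-type replicate 3 and P311-/- replicate 1. It was below that number in old wild-type replicates 1 and 2 and P311-/- replicates 2 and 3. The gene for P311, Nrep, was at 74.3 ± 11.3 FPKM in young muscle, 75.6 ± 6.51 FPKM in old wild type and 10.3 ± 4.26 FPKM in P311-/- (mean ± SD, n = 3 each). Nrep was thus lower in all 3 P311-/- libraries, though not at 0, with 14.8, 6.37 and 9.72 FPKM in replicates 1, 2 and 3. P311-/- replicate 1 stood apart from its group: its distance to the other two was 81.9 and 86.0 on the log2 scale over all tested genes, while those lay 66.7 apart and it lay 59.6 to 70.0 from the old wild-type libraries. Results that rest on the P311-/- group are therefore also given without it. Those fits keep only P311-/- replicates 2 and 3, and replicate 1 was singled out in these same data. Their p-values describe how a result depends on that library and are not separate evidence. All 6 myofibre markers (Acta1, Ckm, Myh1, Myh4, Tnnt3 and Ttn) were detected in every library, with a sum of 29124 to 43328 FPKM.

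Irx3 and Irx5 encode homeodomain transcription factors of the Iroquois family, which in vertebrates is arranged in a pair of clusters, one with Irx3, Irx5 and Irx6 and the other with Irx1, Irx2 and Irx4. Their TALE homeodomain carries an insert of a few amino acids between its first helices, and the family is known for patterning of the limb, heart and nervous system. Fto encodes a demethylase that removes methyl groups from N6-methyladenosine in RNA. Introns of the human gene hold obesity-associated variants and enhancers that contact the IRX3 and IRX5 promoters, and Irx3 and Irx5 are studied for the choice between thermogenic and storing adipocytes. Irx3os is a long non-coding RNA read from the strand opposite Irx3.

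On GRCm38, Fto occupied chr8 from 91313525 to 91668439 on the plus strand, with its 3′ end 130 kb from Irx3. Irx3 (2762 exon bases) lay at 91798525 to 91802067 on the minus strand. Irx3os (3725 exon bases) lay at 91800415 to 91807539 on the plus strand, and Irx5 at 92357625 to 92376286 on the plus strand, 556 kb beyond Irx3. The gene bodies of Irx3 and Irx3os overlapped by 1653 bases, but their exons shared only 124. Those 124 bases were the first exon of Irx3os and lay entirely within the coding sequence of Irx3. They are printed because they are the only bases from which one read could be counted to either gene. The upper line is the exon on the plus strand of chr8:91800415-91800538. The lower line is the Irx3 mRNA sense on the minus strand of chr8:91800375-91800578, with the shared bases in capitals (GENCODE M21, GRCm38).
Irx3os first exon: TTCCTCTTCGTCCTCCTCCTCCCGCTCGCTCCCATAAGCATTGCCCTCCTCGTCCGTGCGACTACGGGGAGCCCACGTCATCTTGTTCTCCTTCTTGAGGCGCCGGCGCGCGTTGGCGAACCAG
Irx3 coding stretch: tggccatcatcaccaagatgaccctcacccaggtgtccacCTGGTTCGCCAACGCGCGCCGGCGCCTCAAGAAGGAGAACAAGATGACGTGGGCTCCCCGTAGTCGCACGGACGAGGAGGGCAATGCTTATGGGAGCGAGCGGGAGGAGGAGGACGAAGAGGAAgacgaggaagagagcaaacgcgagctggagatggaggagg

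The shared stretch made up 4.49% of the Irx3 exon bases and 3.33% of those of Irx3os, so 3601 of the 3725 Irx3os exon bases lay outside Irx3. The labelled protocol describes second-strand synthesis both for stranded and for unstranded libraries without saying which was made, and the strand setting of the counting is not given in the sources used here. Reads of the 2 genes within these 124 bases can therefore not be told apart.

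The start of Irx3os differs between annotations, and RefSeq places it at 91803336, inside an intron of the model counted here and beyond the 5′ end of Irx3. RefSeq also ends the gene 66.2 kb further on than the deposited table does. The 300 bases around the RefSeq start, on the plus strand of chr8:91803086-91803385 (RefSeq, GRCm38.p6), are printed because Irx3os is the gene whose level separated the ages. CpG pairs are in capitals.
Irx3os start window: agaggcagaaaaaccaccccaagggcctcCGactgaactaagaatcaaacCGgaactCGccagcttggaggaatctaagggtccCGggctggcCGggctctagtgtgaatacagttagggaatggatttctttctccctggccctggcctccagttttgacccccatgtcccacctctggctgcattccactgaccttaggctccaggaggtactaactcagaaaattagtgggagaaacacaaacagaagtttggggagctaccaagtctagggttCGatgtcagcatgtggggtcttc

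This window held 6 CpG pairs, against a median of 7 over 32851 start windows of the same length, of which 43.6% held fewer. The letters of 4 motifs were searched on both strands: the Iroquois-type palindrome ACANNTGT (in 7.38% of all windows), the E-box CAGCTG (16.3%), TATAAA (13.6%) and the homeodomain core TAATTA (5.29%). None of them occurred in the windows of Irx3os, Irx3 or Fto. That says only that these letters are not in these 300 bases.

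Irx3os was higher in all 3 young libraries than in any of the 6 old ones. Its level was 1.10, 1.69 and 1.25 FPKM in the young libraries, 0.495, 0.470 and 0.300 FPKM in old wild type, and 0.311, 0.315 and 0.267 FPKM in P311-/-. The young and old groups did not overlap, whereas the old wild-type and P311-/- groups did: old wild-type replicate 3 lay below P311-/- replicates 1 and 2. The mean was 1.35 ± 0.305 FPKM in young muscle, 0.422 ± 0.106 in old wild type and 0.298 ± 0.0269 in P311-/- (SD, n = 3). The old wild-type mean was 0.313 of the young mean, the P311-/- mean was 0.221 of the young mean and 0.706 of the old wild-type mean. On the log2(FPKM + 0.1) scale, used for the log2 differences here unless another setting is named, and one that understates changes of low genes, the differences of the means were -1.47, -1.84 and -0.37.

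The read counts behind these levels were small. Irx3os had 62, 105 and 92 reads in the young libraries, 40, 29 and 27 in old wild type and 33, 21 and 30 in P311-/-, although the old libraries were on average the deeper ones. The exact 95% Poisson interval, which covers counting error only, was 0.843 to 1.41 FPKM in the lowest young library and 0.354 to 0.674 FPKM in the highest old one. Among all 14233 tested genes, 18.1% also lay lower in every old wild-type library than in every young one, and 12.0% lower in every P311-/- library than in every young one. Since Irx3os was picked on this difference, nothing is read from these intervals and shares. It reached the minimum of 0.5 FPKM in 3 libraries, all of them young, and so passed the filter on low values only through the group where it was high.

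**Figure D1:**
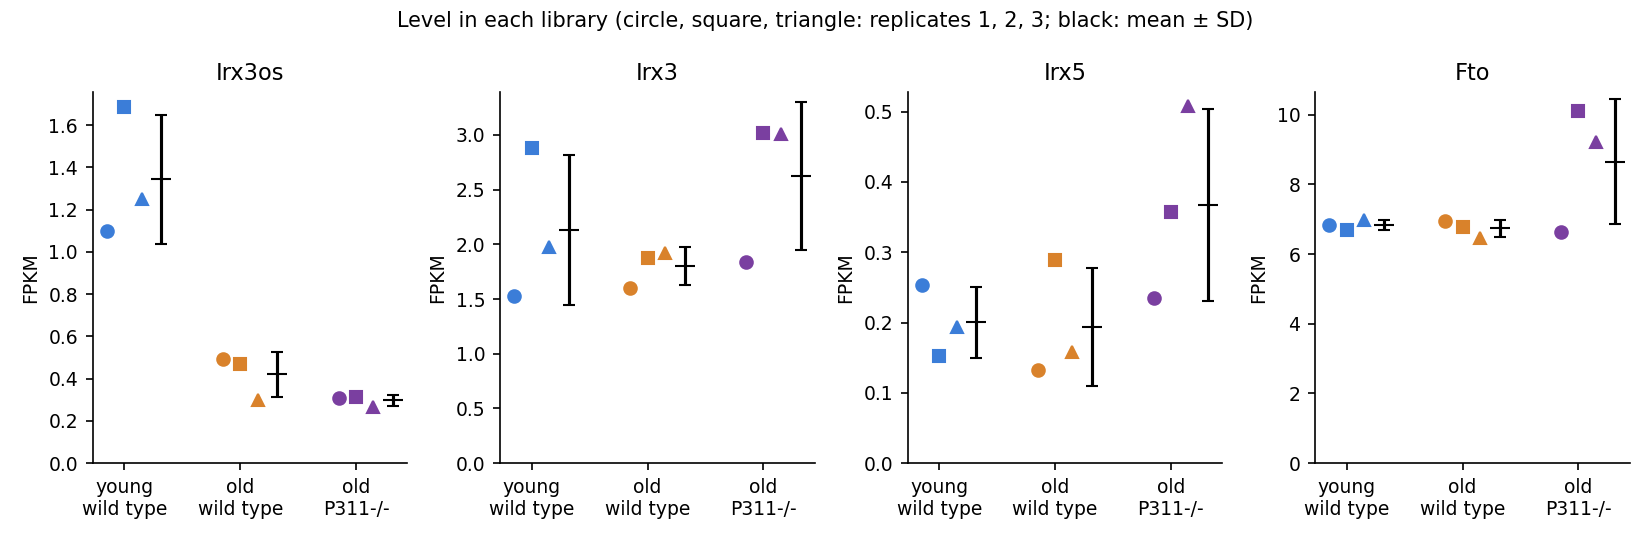
FPKM of the 4 genes in each library (points) with the group mean and SD (bars), 1 panel per gene with its own axis starting at 0, with young wild type on the left, old wild type in the middle and P311-/- on the right. Irx3os is between 1.10 and 1.69 in the young libraries and at most 0.495 in the old ones, while on this deposited scale the groups overlap for Irx3, Irx5 and Fto.

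On the deposited FPKM scale Irx3 itself did not separate the groups, and its overlap between P311-/- and old wild type depends on that scale. It was at 1.53, 2.88 and 1.98 FPKM in the young libraries, 1.60, 1.88 and 1.92 FPKM in old wild type, and 1.84, 3.02 and 3.01 FPKM in P311-/-. The old wild-type libraries were close together and lay inside the range of the young ones, and P311-/- replicates 2 and 3 were the highest of all 9. The means were 2.13 ± 0.688, 1.80 ± 0.172 and 2.62 ± 0.677 FPKM (SD, n = 3), from 64 to 251 reads per library.

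Irx3 did not pass the test in any comparison. Old against young wild type gave a log2 difference of -0.19 ± 0.26 (SE; 95% interval -0.76 to 0.38; adjusted p = 0.673, limma with Benjamini-Hochberg adjustment over all tested genes). P311-/- against old wild type gave 0.49 ± 0.26 (-0.08 to 1.06; limma adjusted p = 0.363), and P311-/- against young gave 0.30 ± 0.26 (-0.27 to 0.87; limma adjusted p = 0.517). These intervals reach up to 1.06 on the log2 scale, so a missing call does not show equal levels. With total-count scaling, which uses the recovered reads as library size, P311-/- against old wild type gave 0.48 ± 0.24 (limma adjusted p = 0.392). Without P311-/- replicate 1 the difference from old wild type was 0.72 (limma adjusted p = 0.0782). With limma's voom and library quality weights it was 0.69 (adjusted p = 0.0343), a setting under which 29.6% of all genes were called.

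Read against its sense partner, Irx3os took a smaller share of the pair in old muscle. The ratio of Irx3os to Irx3, both in FPKM, was 0.718, 0.585 and 0.632 in the young libraries, 0.309, 0.250 and 0.156 in old wild type and 0.169, 0.105 and 0.0886 in P311-/-. The young group lay above both old groups without overlap, and old wild-type replicate 3 fell just below P311-/- replicate 1. Its means were 0.645 ± 0.0675, 0.238 ± 0.0769 and 0.121 ± 0.0424 (SD, n = 3). The ratio, and the sum given next, contain the level that Irx3os was chosen for and are not separate evidence. The sum of the 2 genes does not depend on how counted reads of the shared exon were divided, but misses any left uncounted. The sum is given in RPM, reads scaled to the library size implied by the deposited FPKM. This sum was 8.32, 14.2 and 10.1 RPM in young muscle, 6.27, 6.94 and 6.42 in old wild type and 6.24, 9.51 and 9.30 in P311-/-. Its old wild-type values lay below the young ones and P311-/- overlapped both, whereas Irx3 alone overlapped between the ages.

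**Figure D2:**
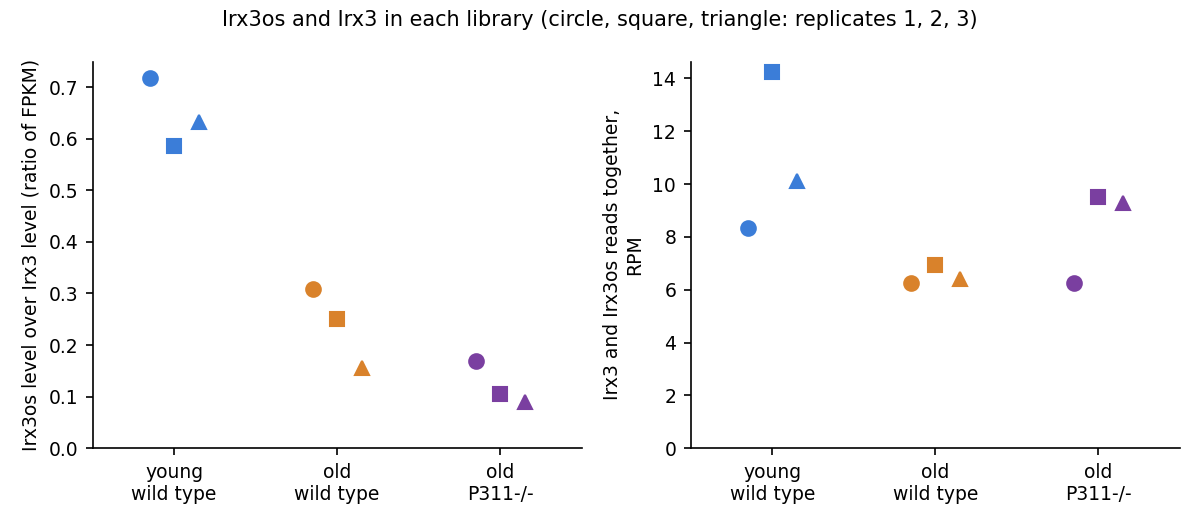
Left, the ratio of Irx3os to Irx3 (both FPKM), and right, both genes together in RPM, 1 point per library with groups along the horizontal axis and both vertical axes from 0. The 3 young libraries have ratios from 0.585 to 0.718 and the 6 old ones from 0.0886 to 0.309, and the sum of both genes is 6.27 to 6.94 in old wild type against 8.32 to 14.2 in young.

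Irx5 was near the limit of detection. It was at 0.253, 0.153 and 0.194 FPKM in the young libraries, 0.133, 0.289 and 0.159 FPKM in old wild type, and 0.235, 0.358 and 0.508 FPKM in P311-/-, from 8 to 48 reads per library. P311-/- replicates 2 and 3 were again the highest, and replicate 1 lay within the range of both wild-type groups, so the groups overlapped. The means were 0.200 ± 0.0504, 0.194 ± 0.0840 and 0.367 ± 0.137 FPKM (SD, n = 3). Only P311-/- replicate 3 reached 0.5 FPKM, so Irx5 failed the filter on low values and was not tested. The differences of its mean log2 values were -0.06 for old against young, 0.66 for P311-/- against old and 0.61 for P311-/- against young. With no filter its limma adjusted p was 0.642 for P311-/- against old wild type and 0.569 against young, and with a looser filter on low values 0.432 and 0.390.

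Fto was the highest of the 4 genes per length and the steadiest in wild-type muscle. It was at 6.84, 6.68 and 6.98 FPKM in the young libraries, 6.95, 6.78 and 6.47 FPKM in old wild type, and 6.64, 10.1 and 9.20 FPKM in P311-/-, from 1349 to 3623 reads. The 6 wild-type libraries and P311-/- replicate 1 lay between 6.47 and 6.98 FPKM, and P311-/- replicates 2 and 3 lay above all of them. The library size behind these FPKM was above the recovered reads in P311-/- replicate 1 and below them in replicates 2 and 3. The place of replicate 1 among the wild-type libraries, and so the overlap with old wild type, depends on that scale. The means were 6.83 ± 0.149, 6.73 ± 0.245 and 8.65 ± 1.80 FPKM (SD, n = 3).

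Fto gave a log2 difference of -0.02 ± 0.15 between old and young wild type (SE; 95% interval -0.36 to 0.32; limma adjusted p = 0.945). Against old wild type the P311-/- group was at 0.34 ± 0.15 (-0.0048 to 0.68; limma adjusted p = 0.315), and against young at 0.31 ± 0.15 (-0.03 to 0.65; limma adjusted p = 0.265). These comparisons share libraries and are not independent of each other. With total-count scaling the difference from old wild type was 0.32 ± 0.11 (limma adjusted p = 0.285). P311-/- replicate 1 had the lowest Fto of its group, so leaving it out raises both P311-/- differences by construction. Without it they were 0.51 ± 0.11 against old wild type (limma adjusted p = 0.0184) and 0.49 ± 0.11 against young (limma adjusted p = 0.0145). In those fits 13.6% and 20.0% of all tested genes were called, so a call was not rare there. With quality weights and all 9 libraries Fto was called, at 0.45 (limma voom adjusted p = 0.00657) and 0.43 (0.00579).

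In the limma fit of log2(FPKM + 0.1) over all 9 libraries, neither of the 2 genes tested here, Irx3 and Fto, was called in any comparison. Over all tested genes 5.40% were called for old against young wild type (3.39% higher and 2.01% lower), 0.0703% for P311-/- against old wild type and 0.400% for P311-/- against young. An unadjusted p under 0.05 was reached by 26.3%, 16.1% and 21.4% of them. Voom called 7.06%, 0.0492% and 0.977%, and voom with quality weights 21.1%, 29.6% and 31.1%. Per length, Fto was above Irx3 in all 9 libraries by 2.32 to 4.47 times, and Irx3 was above Irx3os in all 9. In young muscle the ranges of Irx3 and Irx3os overlapped, and in the old groups they did not. Irx3os was above Irx5 in young and in old wild type, without overlap. In P311-/- the order of those last 2 means turned, 0.298 ± 0.0269 for Irx3os against 0.367 ± 0.137 for Irx5, and their ranges overlapped.

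On the deposited FPKM scale the same P311-/- libraries carried the higher values of 3 genes. Relative to the old wild-type mean, P311-/- replicates 1, 2 and 3 stood at 1.02, 1.68 and 1.67 for Irx3, at 1.22, 1.85 and 2.62 for Irx5, and at 0.986, 1.501 and 1.37 for Fto. Irx3os stood at 0.737, 0.748 and 0.632. Marker sums of several cell types also split replicate 1 from the other two. The summed FPKM of the 6 myofibre markers was 30486 in replicate 1 and 43328 and 40713 in the other two, and that of 7 markers of fibro-adipogenic progenitors, the connective-tissue progenitors of muscle (Pdgfra, Dcn, Lum, Pi16, Cd34, Ly6a and Col1a1), was 764, 500.0 and 538. In the same order adipocyte markers summed to 175, 57.3 and 76.8 FPKM, macrophage markers to 120, 63.6 and 80.6, and Schwann cell markers to 4.52, 9.30 and 7.63. The part of cell composition in these values was not tested. In whole muscle, fewer cells of a type and less RNA per cell cannot be told apart.

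**Figure D3:**
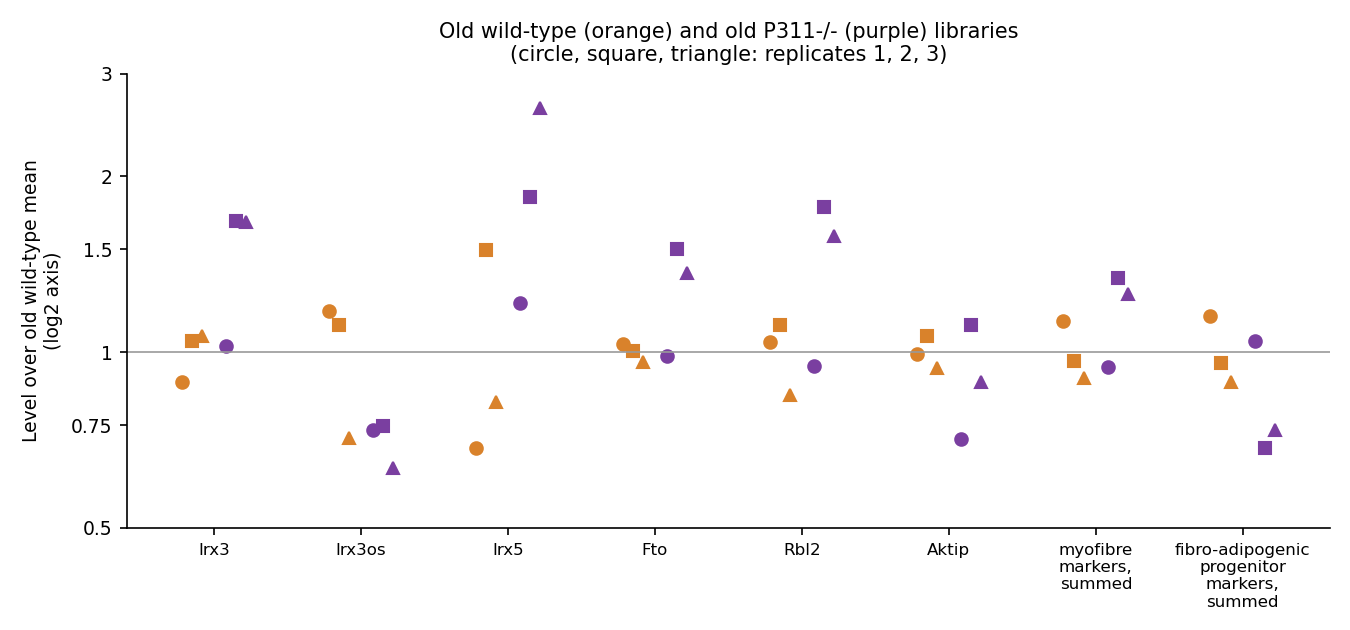
Level of the 4 genes, the neighbours Rbl2 and Aktip and 2 marker sums in each of the 6 old libraries, divided by the old wild-type mean (log2 axis; orange old wild type, purple P311-/-; circle, square and triangle for replicates 1, 2 and 3). P311-/- replicates 2 and 3 lie above 1 for Irx3, Irx5, Fto, Rbl2 and the myofibre markers and below 1 for Irx3os and the progenitor markers, while P311-/- replicate 1 is at 1.02 for Irx3 and 0.986 for Fto.

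Marker sums also differed by age. The progenitor markers summed to 917 to 920 FPKM in young muscle and 650 to 841 in old wild type, without overlap. Of the 7, 1 was called lower in old muscle, the collagen gene Col1a1, at a log2 difference of -1.04 (limma adjusted p = 0.0436). Of all tested genes 2.01% were called lower and 18.1% lay lower without overlap. The lower sum rested on Col1a1, whose mean was 408 FPKM in young and 198 in old wild type. Dcn (161 and 187 FPKM) and Lum (117 and 167) had higher means in old wild type. Pdgfra, Pi16, Cd34 and Ly6a had lower ones. Tenocyte markers summed to 105 to 146 FPKM in young and 86.9 to 94.3 in old wild type, with 0 of the 5 called. Most of that change lay in Thbs4, with means of 79.4 and 50.5 FPKM. Tnmd, Mkx and Fmod also had lower means in old wild type, and Scx a higher one (6.52 and 9.90 FPKM). Myofibre markers summed to 29837 to 30575 FPKM in young and 29124 to 36539 in old wild type, and 1 of the 6, the fast myosin gene Myh1, was called lower (-1.01, limma adjusted p = 0.0362). Satellite cell markers overlapped between the ages, at 10.6 to 15.3 and 13.0 to 15.1 FPKM, as did adipocyte markers at 55.1 to 105 and 35.4 to 87.1 FPKM and macrophage markers at 118 to 177 and 90.8 to 132 FPKM. These differences ran alongside the lower Irx3os level in old muscle, and their part in it was not tested. No marker was at 0 in all libraries.

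The other Iroquois genes had few or no reads. Irx1 had 0 to 12 reads per library (at most 0.276 FPKM) and Irx2 also 0 to 12 (at most 0.185 FPKM). Irx6, the third gene of the Irx3 cluster, had 5 reads in old wild-type replicate 1 (0.0684 FPKM) and 0 in the other 8 libraries. Irx4 had 0 reads in all 9, which allows up to 3 reads, or 0.0381 to 0.0760 FPKM depending on the library. Of the 6 Iroquois genes, Irx3 was the only one above 0.5 FPKM in every library.

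The table held 51 genes whose listed start, the lower coordinate of a gene, was within 1000 kb of that of Irx3, the 4 genes described here included. Of these 34 had a read and 12 passed the filter, and 11 were compared, Irx3os being left out. For old against young wild type 4 of the 11 lay above 0 and 7 below, with a median log2 difference of -0.02 against 0.00 over all tested genes. The single call was Gm45640, a short unclassified transcript inside Chd9, which fell from 0.878 ± 0.258 FPKM in young to 0.179 ± 0.011 in old wild type (-1.77 ± 0.41, limma adjusted p = 0.0426). It rests on 6 to 41 reads per library, and since it lies within Chd9 on its strand, its reads cannot be told from reads of Chd9 introns. The list had 0 calls by age without any 1 of the young or old wild-type libraries or without P311-/- replicate 3. The next smallest p belonged to Aktip, which was higher in old muscle. It was at 5.81 ± 0.416 FPKM in young and 8.01 ± 0.510 in old wild type (0.46, limma adjusted p = 0.112). Without P311-/- replicate 1 its limma adjusted p by age was 0.0404, in a fit that called 1775 genes. Chd9, a chromatin remodeller, was at -0.30 (limma adjusted p = 0.200).

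For P311-/- against old wild type 10 of the 11 lay above 0, with a median of 0.33 against -0.00 over all tested genes. Without P311-/- replicate 1 this was 8 of 10, with a median of 0.39. None, 0 of the 11, were called by limma (0 at an unadjusted p under 0.05, 0 by voom and 3 by voom with quality weights). Fto and Rbl2 had the smallest p. Rbl2, which encodes the retinoblastoma-family protein p130, was at 5.01 ± 0.414 FPKM in young, 4.98 ± 0.699 in old wild type and 7.14 ± 2.15 in P311-/- (0.47 ± 0.22 against old wild type, limma adjusted p = 0.326). Its P311-/- replicates stood at 0.947, 1.77 and 1.58 of the old wild-type mean, the order seen for Irx3 and Fto. Without replicate 1, its lowest P311-/- library, Rbl2 was at 0.74 (limma adjusted p = 0.017), in a fit that called 13.6% of all tested genes. For P311-/- against young 7 lay above 0 and 4 below, with a median of 0.30 against 0.01, and 0 were called by limma (1 at an unadjusted p under 0.05, 0 by voom and 4 by voom with quality weights). The smallest p belonged to Gm45640 (-1.08, limma adjusted p = 0.177) and Gm9619 (1.24, limma adjusted p = 0.242).

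**Figure D4:**
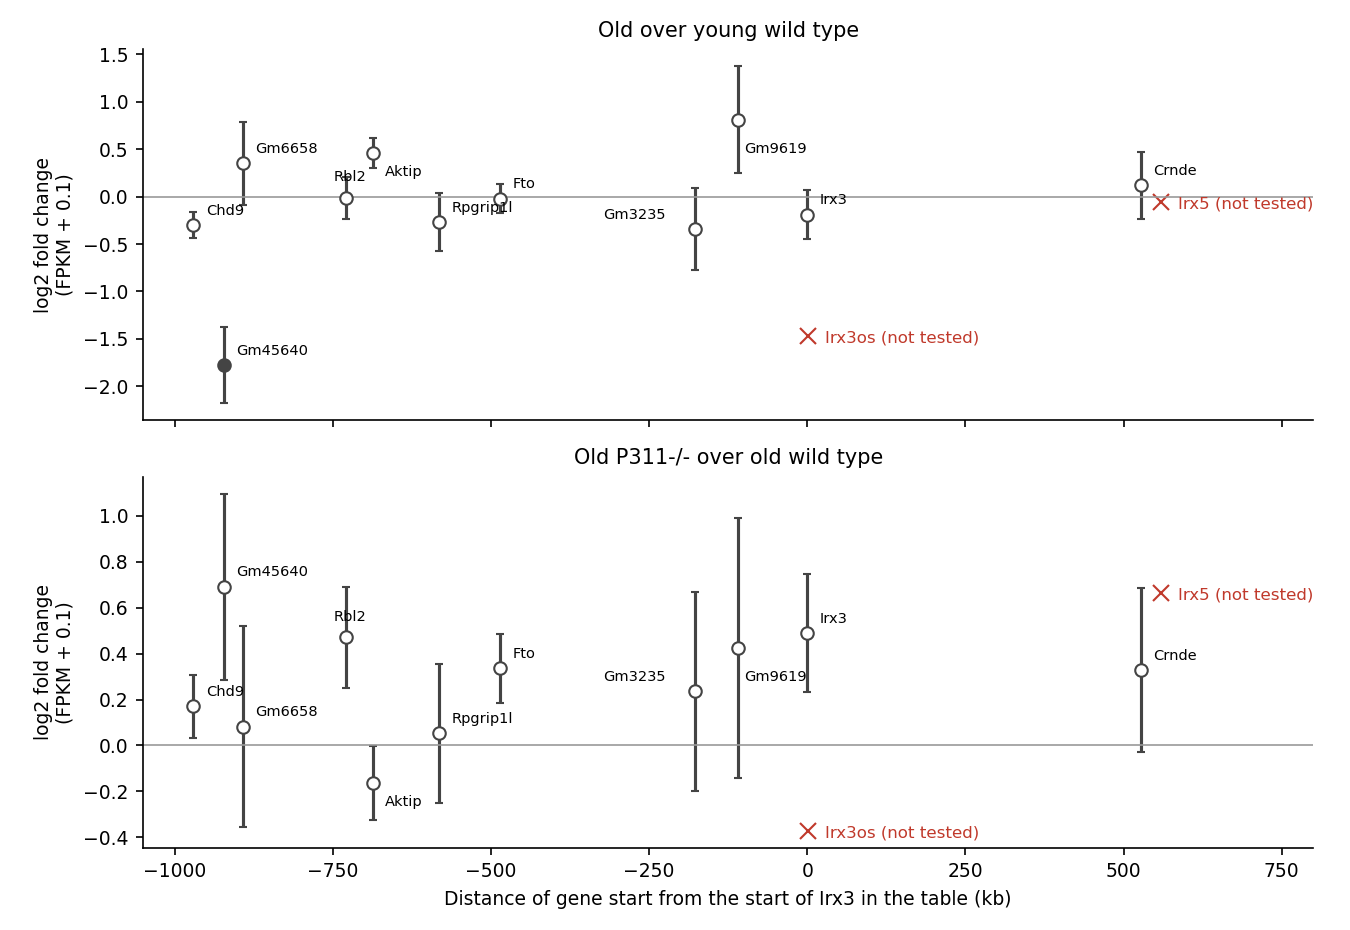
Log2 difference of each tested gene within 1000 kb of Irx3, on the log2(FPKM + 0.1) scale, plotted against the distance of its listed start from that of Irx3 in kb, upper panel old against young wild type and lower panel P311-/- against old wild type (circles with SE, filled where called; crosses for Irx3os and Irx5, which were not tested). In the upper panel 4 of 11 tested genes lie above 0 and Gm45640 is filled, and in the lower panel 10 of 11 lie above 0.

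A pair of genes start close to the members on the opposite strand. Rpgrip1l, a ciliary gene that starts 263 bases from Fto, was at 0.538 ± 0.137, 0.421 ± 0.032 and 0.442 ± 0.068 FPKM in young, old wild type and P311-/-. Crnde, a non-coding RNA that starts 1505 bases from Irx5, was at 0.661 ± 0.312, 0.676 ± 0.132 and 0.871 ± 0.132 FPKM. Neither was called in any of the 3 comparisons in the limma fit of log2(FPKM + 0.1) over all 9 libraries. Beside Irx3os, which was picked for its pattern, Gm45640, Chd9 and Gm36380 had their 3 highest values in the young libraries. These genes were listed after their values were seen. Of all tested genes 7.74% did so, but most of the 34 genes with a read were not tested. That share is therefore not a like background, and nothing is read from it. Gm36380, a non-coding RNA whose listed start is at -10.02 kb from that of Irx3, was at 0.166, 0.246 and 0.254 FPKM in the young libraries, 0.0526, 0 and 0.0851 in old wild type and 0, 0 and 0.0983 in P311-/-. It had 0 to 22 reads per library and was not tested.

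Related genes were followed in lists made with earlier results of these data known. Of 12 other TALE homeobox genes (the Meis, Pbx, Pknox, Tgif and Mkx factors), 8 were tested and 0 were called in each comparison by limma, with 0 at an unadjusted p under 0.05. Voom also called 0, and voom with quality weights called 1, for P311-/- against old wild type. Their medians were -0.20, 0.05 and -0.11 for old against young, P311-/- against old and P311-/- against young, where all tested genes had 0.00, -0.00 and 0.01. The smallest p belonged to Pknox1 (-0.27, limma adjusted p = 0.429) and Pknox2 (-0.24, 0.435) for age, to Pknox2 (0.30, 0.435) and Tgif1 (-0.32, 0.461) for P311-/- against old, and to the tendon factor Mkx (-0.75, 0.325) and Pbx3 (-0.43, 0.378) for P311-/- against young.

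The 8 other AlkB-family dioxygenases, relatives of Fto, were all tested. Limma called 0 in each comparison, with 1, 1 and 0 at an unadjusted p under 0.05, voom called 0, and voom with quality weights called 0, 2 and 2. Alkbh5, the other known m6A demethylase, was at 20.5 ± 1.31, 18.7 ± 3.24 and 24.9 ± 6.24 FPKM in young, old wild type and P311-/- (0.40 against old wild type, limma adjusted p = 0.356). Without P311-/- replicate 1 it was at 0.62 (limma adjusted p = 0.0324), in a fit that called 13.6% of all tested genes. Alkbh7, a mitochondrial member, was at 0.37 for old against young (limma adjusted p = 0.188) and -0.41 for P311-/- against old wild type (0.284). Alkbh6 was at 0.39 for old against young (0.207) and 0.33 for P311-/- against young (0.314).

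Of 19 genes that write or read m6A, 17 were tested. For old against young wild type 0 were called higher and 1 lower, with a list median of 0.05. This was Igf2bp2, an RNA-binding protein that stabilizes m6A-marked transcripts, which fell from 1.49 ± 0.308 FPKM in young to 0.446 ± 0.155 in old wild type (-1.57 ± 0.33, limma adjusted p = 0.0357). It was at 0.442 ± 0.164 FPKM in P311-/- (-1.58 against young, limma adjusted p = 0.0686, and -1.81 with adjusted p = 0.00897 without P311-/- replicate 1). Without that replicate 20.0% of all tested genes were called against young. By age the list had 0 calls without any 1 of the young libraries or without old wild-type replicate 2 or 3. Also by age, 7 of the 17 had an unadjusted limma p under 0.05, beside 26.3% of all tested genes. In the P311-/- comparisons limma called 0. An unadjusted p under 0.05 was reached by 5 of the 17 against old wild type (16.1% of all tested genes) and by 3 against young (21.4%). Voom called 0 and 1, and voom with quality weights 6 and 2. The smallest p otherwise belonged to Hnrnpc (-0.27, limma adjusted p = 0.268) and the reader Ythdf3 (-0.34, 0.278) against old wild type, and to Hnrnpc (-0.22, 0.230) against young.

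Of 10 genes of thermogenic fat, 7 were tested, and limma called 0 in each comparison. An unadjusted p under 0.05 was reached by 4, 5 and 3 of the 7, beside 26.3%, 16.1% and 21.4% of all tested genes. Voom called 3, 0 and 0, and voom with quality weights 4, 4 and 2. The medians were 0.01 for old against young, -0.56 for P311-/- against old wild type and -0.18 for P311-/- against young. For age the smallest p belonged to the zinc finger factor Zfp516 (-0.52, limma adjusted p = 0.0563) and Cox7a1, a cytochrome oxidase subunit that muscle also expresses (0.74, 0.0643). Against old wild type the P311-/- group was at -0.80 for Cox7a1 (0.243) and -0.85 for the deiodinase Dio2 (0.266). Without P311-/- replicate 1 both were called, at -0.89 (0.0302) and -1.11 (0.0390), beside 13.6% of all tested genes. Against young the P311-/- group was at -1.14 for the lipid droplet gene Cidea (0.123) and -0.60 for Ebf2 (0.136). The adipocyte marker sums of the 3 P311-/- libraries, from 57.3 to 175 FPKM, stand beside these values, and their part was not tested.

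Of 15 hedgehog pathway genes, 9 were tested, and all 9 lay below 0 for old against young wild type, with a median of -0.45 against 0.00 over all tested genes. Limma called 2 of them lower, beside 2.01% of all tested genes, and 5 had an unadjusted p under 0.05, beside 26.3%. Both called genes encode co-receptors: Boc fell from 5.34 ± 0.414 to 3.54 ± 0.557 FPKM (-0.59 ± 0.14, limma adjusted p = 0.0470), and Gas1 from 30.0 ± 4.40 to 16.5 ± 0.198 FPKM (-0.85 ± 0.21, 0.0486). Both calls were close to the threshold, and the list had 0 calls with no filter, with total-count scaling, and without any 1 of the young libraries, old wild-type replicate 2 or 3 or P311-/- replicate 3. For P311-/- against old wild type no gene was called, with Boc at 0.16 (limma adjusted p = 0.585) and the transducer Smo at 0.21 (0.603), a list median of 0.05, and 0 calls by limma, by voom and by voom with quality weights (0 at an unadjusted p under 0.05). Against young the P311-/- median was -0.41, with Gas1 at -0.82 (limma adjusted p = 0.105, and 0.00403 without P311-/- replicate 1) and Boc at -0.43 (0.143), and 0 calls by limma or voom (4 at an unadjusted p under 0.05, 5 calls with quality weights). Without P311-/- replicate 1, 20.0% of all tested genes were called against young. The progenitor marker sums given above were also lower in old wild type, through Col1a1, while Dcn and Lum were higher there. The part of cell composition in these hedgehog values was not tested.

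The genes whose levels ran most like each member over the 9 libraries were ranked by Pearson's r of log2(FPKM + 0.1) among the tested genes, unnamed gene models left out. The libraries fall into 3 groups and share depth and composition, so r describes them and has no p. For Irx3os these were Lynx1 (0.984), Sec14l5 (0.976), Tnfaip2 (0.971), Sec16b (0.958) and Hexim1 (0.956). Lynx1, a membrane-anchored modulator of nicotinic acetylcholine receptors, was at 45.1 ± 3.85 FPKM in young, 31.8 ± 3.07 in old wild type and 26.8 ± 1.32 in P311-/-. Sec14l5, a lipid-transfer domain gene, was at 14.3 ± 1.38, 7.18 ± 1.24 and 6.95 ± 0.414 FPKM. Hexim1, an inhibitor of the elongation factor P-TEFb, was at 14.6 ± 0.942, 10.3 ± 0.668 and 9.74 ± 0.341 FPKM. Their means follow the order of Irx3os because they were selected on it.

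For Irx3 the most similar were the glypican gene Gpc1 (0.966), Tarbp2 (0.965), Ppp1r16a (0.951), Tnpo3 (0.950) and Eif3b (0.947). Gpc1 was at 59.5 ± 11.1, 55.3 ± 5.25 and 69.1 ± 8.07 FPKM in young, old wild type and P311-/-, with the highest mean in P311-/- as for Irx3. For Fto they were the ubiquitin ligase Ube4a (0.989), the importin Ipo13 (0.988), the methyltransferase Smyd2 (0.987), Sympk (0.986) and Entpd6 (0.984). Smyd2 was at 23.6 ± 0.563, 23.5 ± 1.74 and 47.5 ± 19.8 FPKM, and Ipo13 at 34.1 ± 1.44, 34.2 ± 2.67 and 60.8 ± 25.5 FPKM, both with the wide P311-/- spread that Fto shows. For Irx5 they were Fscn2 (0.969), Mttp (0.962), Gtf2i (0.947), Gnl3l (0.935) and Ankrd13b (0.934). Only 8 to 48 Irx5 reads per library stand behind that ranking.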

How the data were processed

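Per the labels, polyA RNA of injured tibialis anterior was sequenced in 9 libraries, and per the submitters' processing notes HISAT2 2.2.1, featureCounts 2.1.1 and DESeq2 1.42.0 were used with build mm39. The authors' deposited table gives FPKM and a gene length in bases (an "other" unit), with positions identical to GENCODE M21 on GRCm38 for 98.3% of shared gene identifiers, so coordinates here are GRCm38. FPKM times length was a whole multiple of 1 constant per library for 100% of values (tolerance 0.001), which gave the reads (14222204 to 31910890 per library). These sums set the precision, and intervals cover counting error only.

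The deposited FPKM were tested as log2(FPKM + 0.1) with limma 3.58.1 (R 4.3.3; trend, robust), all 9 libraries in 1 fit, for 14233 genes with at least 0.5 FPKM and 10 reads in 3 libraries. Genes with a Benjamini-Hochberg adjusted p under 0.05 were called. Members and lists were chosen with earlier results of these data known, and Irx3os was given no test. Named genes are the members, the Iroquois genes, up to 4 calls per list and comparison or otherwise the 2 smallest p, and 5 similar genes per member. Chd9, Rpgrip1l, Crnde and Gm36380 were added for their position, Gm36380 after its values were seen. Aktip was added for the next smallest p by age after the call in its list. Reads were also scaled to the library size implied by the deposited FPKM (RPM). Alternatives were another pseudocount, filter or scaling, a fit of the 6 libraries compared, a replicate block, voom with and without quality weights, and leaving out each library.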

Additional observations from a re-analysis of the deposited data

How the results depend on the processing

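Precision is limited by 3 libraries a group, by 8 to 48 reads for Irx5 and 21 to 105 for Irx3os, and by P311-/- replicate 1, without which far more genes were called. Where 3 values follow each other, the first is for age in wild type, the second for P311-/- against old wild type and the third for P311-/- against young. Causes of the shifts were not tested, apart from those that follow from fewer or more genes or libraries in a fit. With all libraries limma called 768, 10 and 57 genes. No filter gave 5, 9 and 23, the looser filter 461, 12 and 49, total-count scaling 325, 9 and 34, and fits of the 6 libraries compared 1653, 6 and 12. A pseudocount of 1 gave 833, 12 and 87, voom 1005, 7 and 139, and voom with quality weights 3001, 4211 and 4422. Total-count scaling moved the median of all genes from 0.00 to -0.13 for old against young and from 0.01 to -0.13 for P311-/- against young, and the higher share of calls by age from 62.8% to 27.1%.

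Leaving out 1 library gave 0 to 1775, 4 to 1906 and 4 to 2811 calls. Without young replicates 1, 2 and 3 the calls by age were 14, 1 and 0, without old wild-type replicates 2 and 3 they were 0 and 10, and without P311-/- replicates 1 and 3 they were 1775 and 441. For P311-/- against old wild type the calls were 6, 4 and 5 without old wild-type replicates 1, 2 and 3, and 1906 without P311-/- replicate 1. Against young they were 15, 10 and 4 without young replicates 1, 2 and 3, 36, 11 and 19 without old wild-type replicates 1, 2 and 3, and 2811, 10 and 8 without P311-/- replicates 1, 2 and 3. The log2 difference of Irx3 ranged from -0.39 to 0.041, 0.37 to 0.72 and 0.095 to 0.53. It turned positive by age without young replicate 2. Fto ranged from -0.045 to 0.0065, 0.21 to 0.51 and 0.19 to 0.49, the highest value by age without old wild-type replicate 3. Irx5 ranged from -0.28 to 0.09, 0.45 to 0.89 and 0.40 to 0.83, and Irx3os from -1.60 to -1.29, -0.55 to -0.27 and -1.97 to -1.68.

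At a pseudocount of 1 Irx3os stood at -0.72, -0.13 and -0.85, and Irx5 at 0.19 against old wild type and 0.18 against young. For P311-/- against young Irx3os stood at -2.12 at a pseudocount of 0.01, at -2.16 with voom and at -2.26 with quality weights. With quality weights Irx3 was called at 0.69 against old wild type, and Fto at 0.45 and 0.43.

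Calls within the lists were few and followed the same settings. By age, m6A genes had 1 call, and 0 with no filter, 2 in the fit of 6 libraries and 5 with quality weights. Thermogenic genes had 0, and 1 with total-count scaling, 3 in the fit of 6 libraries, 3 with voom and 4 with quality weights. Hedgehog genes had 2, and 1 at a pseudocount of 0.01, 0 with no filter, 0 with the looser filter, 0 with total-count scaling, 4 in the fit of 6 libraries and 4 with quality weights. Genes around Irx3 had 1, and 0 with no filter, 0 with total-count scaling, 2 in the fit of 6 libraries and 3 with quality weights. Without 1 library these lists had 0 to 2, 0 to 2, 0 to 3 and 0 to 2 calls. The m6A, hedgehog and Irx3-region lists had 0 calls by age without any 1 of the young libraries and without old wild-type replicate 2 or 3, the hedgehog list and the Irx3 region also without P311-/- replicate 3, and the Irx3 region without old wild-type replicate 1. For P311-/- against old wild type quality weights gave 1 TALE, 2 AlkB, 6 m6A and 4 thermogenic calls and 3 around Irx3, and leaving out 1 library gave at most 1 AlkB, 1 m6A and 2 thermogenic calls and 2 around Irx3, each without P311-/- replicate 1. Against young quality weights gave 2 AlkB, 2 m6A, 2 thermogenic and 5 hedgehog calls and 4 around Irx3. A pseudocount of 1 and voom gave 1 m6A call each. Leaving out 1 library gave 0 to 2 m6A, 0 to 1 thermogenic and 0 to 3 hedgehog calls and 0 to 3 around Irx3, the highest again without P311-/- replicate 1.

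Replicate numbers did not pair the libraries: the 9 correlations of same-numbered libraries ran from -0.10 to 0.15, with 1 of 9 above 0.1. With a replicate block 0, 4 and 5 genes were called, and by age the m6A, hedgehog and Irx3-region calls all went to 0. Irx3 and Fto were not called with the replicate block.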
